A study of Rattus norvegicus with 5 samples.

Results

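Transcripts of cell cycle and mitosis genes were compared in rat liver between PD, the polydactylous strain, and PD.SHR4, a congenic strain, called PD.SHR4a in the series text, in which a segment of PD chromosome 4 is replaced by that of the spontaneously hypertensive rat, SHR. The genes were chosen by symbol from the array's annotation: the cyclins Ccna, Ccnb, Ccnd and Ccne, the numbered Cdc, Kif and Mcm genes, the Cenp, Aurk, Plk and Bub1 genes, and the single genes Cdk1, Cdk2, Cdk4, Mki67, Top2a, Birc5, Pcna, Rrm1 and Rrm2. Among the 8797 probe sets, 43 carried 1 symbol that fitted this choice, each a different gene. A further probe set, shared by Kif1b and Cort, was not counted. All animals were 4-month-old males on standard chow. Labelled cDNA of 8 rats was pooled for each strain and hybridised to 3 arrays for PD and 2 for PD.SHR4. Arrays of 1 strain are not stated to differ in the rats they hold, so the p-values rest on a spread from array to array that may be technical. With so few arrays, precision is low. Values are log2 expression values after RMA, and every difference is PD.SHR4 minus PD on that scale.

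A dividing cell copies its genome once and then shares it out once. Cyclins bound to cyclin-dependent kinases set the order of events, the Mcm helicase and the clamp Pcna serve replication, and Aurora and polo-like kinases, centromere proteins and kinesin motors serve mitosis. In the liver of an adult rat most hepatocytes rest outside the cycle, and the transcripts of mitosis are scarce until tissue is lost. Many of these genes share promoter elements, the cell cycle homology region (CHR) and the CCAAT box, and are transcribed together late in the cycle. The symbols also admit genes with other work, such as Cdc42, a GTPase of the cytoskeleton, Cdc37, an Hsp90 co-chaperone, and the transport kinesins. A list of genes typical of dividing cells was therefore read separately, and 15 of the 43 members belong to it.

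Most of the 15 dividing-cell genes measured lower in PD.SHR4 than in PD, but none of the 43 members passed the test (limma, adjusted p under 0.05). Across the array 0.932% of probe sets passed. Of the 15 dividing-cell genes, 13 had log2 differences (PD.SHR4 minus PD) below 0, with a median of -0.49 and a range of -0.82 to 0.058. The other 28 members had a median of 0.014, with 9 below 0 and 19 above. All 43 members together had a median of -0.015, with 22 below 0 and 21 above. The dividing-cell list was chosen with earlier results of these data known, so its counts describe the list and do not test it. Over all probe sets the median was 1.97e-04. Unadjusted p was under 0.05 for 6 members that were lower, Kif22, Mcm7, Aurkb, Top2a, Cdc20 and Plk1, all in the dividing-cell list, where 7.92% of all probe sets were lower at that level. It was under 0.05 for 1 member that was higher, Cdc37l1, against 5.84% of all probe sets. All PD.SHR4 arrays lay below all PD arrays for 11 members, 9 of them in the dividing-cell list, against 17.1% of all probe sets, and above them for 4, against 14.8%. In bulk tissue, fewer dividing cells and less of a transcript per cell cannot be told apart.

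The promoters of the lower members are shown because elements of this kind are known from late cell cycle genes. Each stretch runs from 120 bases before the start of the gene to 20 bases after it, on the gene's strand, from RefSeq on assembly GRCr8. Capitals mark 3 kinds of element, each searched on both strands of the promoter. The CHR element was searched as TTTGAA and, in its other common spelling, also as TTCGAA. The CCAAT box was searched by its own letters. The core of the E2F site, bound by the factors that open S phase, was searched as TTCGCGC. Other spellings of the E2F core that were searched along with it were TTGGCGC and, as the last of these spellings, TTCCCGC. Of the 6 lower members with an unadjusted p under 0.05, Aurkb is named only. Cdk1, the kinase of mitosis, with an unadjusted p of 0.0582 (limma), and Pttg1, a partner gene that passed the test, are added. Promoters of the other lower members are not printed. The stretches lie at chr1:191080859-191080998, minus strand (Kif22), chr10:84473074-84473213, minus strand (Top2a), chr5:137255780-137255919, minus strand (Cdc20), chr1:186147538-186147677, plus strand (Plk1), chr12:22163159-22163298, minus strand (Mcm7), chr20:19265173-19265312, plus strand (Cdk1) and chr10:28406307-28406446, minus strand (Pttg1).
Kif22: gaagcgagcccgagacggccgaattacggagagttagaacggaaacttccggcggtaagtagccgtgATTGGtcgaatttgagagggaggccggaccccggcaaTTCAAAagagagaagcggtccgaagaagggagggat
Top2a: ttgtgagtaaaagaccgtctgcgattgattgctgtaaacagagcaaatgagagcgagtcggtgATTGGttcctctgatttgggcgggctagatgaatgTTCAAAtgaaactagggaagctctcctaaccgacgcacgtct
Cdc20: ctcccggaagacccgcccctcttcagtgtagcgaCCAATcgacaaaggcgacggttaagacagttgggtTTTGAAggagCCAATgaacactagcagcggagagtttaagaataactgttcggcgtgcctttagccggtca
Plk1: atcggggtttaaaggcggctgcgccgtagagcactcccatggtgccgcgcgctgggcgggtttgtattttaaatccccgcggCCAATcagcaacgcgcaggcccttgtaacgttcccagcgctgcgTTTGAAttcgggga
Mcm7: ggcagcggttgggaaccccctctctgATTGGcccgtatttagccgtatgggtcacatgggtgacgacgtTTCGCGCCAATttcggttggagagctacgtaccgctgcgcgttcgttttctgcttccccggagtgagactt
Cdk1: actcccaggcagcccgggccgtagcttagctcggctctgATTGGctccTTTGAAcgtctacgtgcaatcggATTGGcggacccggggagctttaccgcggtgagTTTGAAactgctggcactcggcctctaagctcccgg
Pttg1: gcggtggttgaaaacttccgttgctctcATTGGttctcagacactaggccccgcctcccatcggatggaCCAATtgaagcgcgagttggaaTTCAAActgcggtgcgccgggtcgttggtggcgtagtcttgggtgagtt

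Kif22, Top2a, Cdc20, Plk1, Cdk1 and Pttg1 each hold a CHR match and a CCAAT box within the printed bases. The CHR match begins 16 bases before the start in Kif22, 22 in Top2a, 51 in Cdc20 and 29 in Pttg1, and at base 7 of the transcript in Plk1. Cdk1 has a pair of them, beginning 72 and 16 bases before the start. In Mcm7 the long run of capitals joins 2 overlapping E2F cores and a CCAAT box that overlaps them, and its CHR match lies farther upstream, outside the printed bases. Over windows from 250 bases before to 50 after the start, 9 of the 13 dividing-cell genes in the RefSeq table had a CHR match, 10 a CCAAT box, 7 both and 5 an E2F core. The 21 other members in the table had 2, 7, 1 and 5. Of the dividing-cell genes, Aurka (log2 difference -0.65) had no CHR match and no CCAAT box. Pcna (-0.43) and Ccnb1 (-0.49) had a CCAAT box without a CHR match. Cenpi (-0.059), Kif15 (-0.015) and Cenpn (0.058) had a CHR match with small differences, whereas Cdc25a (0.0285) had no CHR match. Whether matches go with the size of the difference was not tested. Among all 33469 windows, 19.7% held a CHR match, 37.5% a CCAAT box, 7.95% both and 7.52% an E2F core. The E-box CACGTG, a site of the clock activators, was in none of the 34 member windows and in 6.42% of all windows. A match is a run of letters and was not tested for binding.

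**Figure D1:**
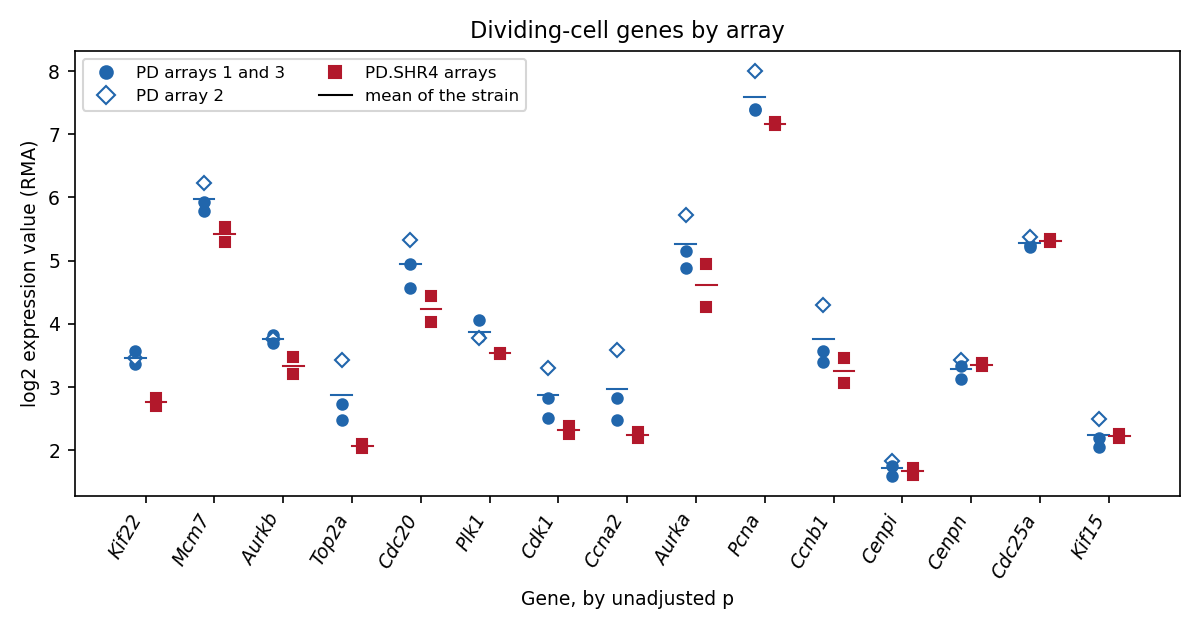
Log2 expression values (RMA) of the 15 dividing-cell genes on each array, ordered by unadjusted p. Blue points are PD arrays 1 and 3, open diamonds PD array 2, red squares the 2 PD.SHR4 arrays, and short lines the mean of each strain. PD array 2 is the highest of the 5 arrays for 12 of the 15 genes, against 34.4% of all probe sets. All PD.SHR4 arrays lie below all PD arrays for 9 of the 15, against 17.1% of all probe sets.

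Kinesins of the spindle were led by Kif22, a motor that pushes chromosome arms toward the spindle equator. Kif22 measured 3.36, 3.47 and 3.57 on the PD arrays and 2.70 and 2.82 on the PD.SHR4 arrays. Every PD.SHR4 array lay below every PD array, and the PD arrays lay close together. The log2 difference was -0.71 ± 0.13 (SE), a level 1.63-fold lower, and it had the smallest p of all members (limma, adjusted p = 0.0784). Both PD.SHR4 values lay below the lower quartile of their arrays, and no PD value did. Kif15, which helps keep the spindle bipolar, differed by -0.015 ± 0.16 (SE) and Kif2b, which removes tubulin at kinetochores, by 0.060 ± 0.20. Both lay below the lower quartile on every array.

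Mitotic kinases and the checkpoint target Cdc20 were all lower in the mean. Cdc20, which activates the ubiquitin ligase that starts anaphase, measured 4.57, 5.32 and 4.95 in PD and 4.02 and 4.44 in PD.SHR4. Its difference of -0.71 ± 0.25 (SE) did not pass (limma, adjusted p = 0.29), although the strains did not overlap. Aurkb, the kinase that corrects faulty spindle attachments, measured 3.83, 3.77 and 3.70 in PD and 3.47 and 3.20 in PD.SHR4, again without overlap (-0.43 ± 0.13 SE; limma, adjusted p = 0.233). Plk1, the polo-like kinase of mitotic entry, measured 3.79, 3.78 and 4.06 against 3.55 and 3.52 (-0.34 ± 0.14 SE; limma, adjusted p = 0.346). Aurka, which matures the spindle poles, measured 5.16, 5.72 and 4.89 against 4.95 and 4.28. Aurka overlapped, since PD.SHR4 array 1 lay above PD array 3, and its difference was -0.65 ± 0.31 (SE; limma, adjusted p = 0.446). The Aurka difference was -0.98 without PD.SHR4 array 1, -0.31 without PD.SHR4 array 2 and -0.42 without PD array 2. Plk2, a stress-responsive member of the family outside this program, went the other way at 0.19 ± 0.21 (SE).

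Among chromosome proteins, Top2a, the topoisomerase that untangles sister chromatids, had the largest difference of the 43 members. Top2a measured 2.49, 3.43 and 2.74 in PD and 2.03 and 2.10 in PD.SHR4, a difference of -0.82 ± 0.28 (SE; limma, adjusted p = 0.271). It lay below the lower quartile on 4 of 5 arrays, all but PD array 2. Without PD array 2 the Top2a difference was -0.55. The centromere proteins Cenpc, Cenpi and Cenpn, of which Cenpc forms the base of the kinetochore, differed by -0.16 ± 0.22, -0.059 ± 0.13 and 0.058 ± 0.13 (SE), and all 3 overlapped between the strains.

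The mitotic cyclins and their kinase resembled Top2a in how the arrays were placed. Ccna2, the cyclin of S phase and mitotic entry, measured 2.48, 3.59 and 2.82 in PD and 2.19 and 2.29 in PD.SHR4 (-0.72 ± 0.32 SE; limma, adjusted p = 0.411). Cdk1, the kinase that drives mitosis, measured 2.51, 3.30 and 2.83 against 2.38 and 2.26 (-0.56 ± 0.24 SE; limma, adjusted p = 0.388). For both genes the strains did not overlap and PD array 2 stood highest. Without that array the differences were -0.41 for Ccna2 and -0.35 for Cdk1. Ccnb1, the partner of Cdk1, overlapped, at 3.58, 4.30 and 3.40 against 3.45 and 3.07 (-0.49 ± 0.29 SE). Cdc25b, a phosphatase that switches Cdk1 on, differed by -0.39 ± 0.19 (SE) without overlap, and Cdc25a by 0.028 ± 0.12. Cdk2, the kinase of S phase entry, differed by 0.048 ± 0.12 (SE), and Ccna1, the germ line cyclin, by 0.010 ± 0.19.

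The D cyclins, which couple growth signals to the cycle, went in opposite directions. Ccnd1 measured 6.12, 6.52 and 6.56 in PD and 6.65 and 7.23 in PD.SHR4, higher on every PD.SHR4 array (0.54 ± 0.23 SE; limma, adjusted p = 0.386). The difference was 0.25 without PD.SHR4 array 2 and 0.83 without PD.SHR4 array 1. Ccnd2 measured 6.80, 7.05 and 6.84 in PD and 6.47 and 6.67 in PD.SHR4, lower on both (-0.33 ± 0.14 SE; limma, adjusted p = 0.387). Ccnd2 is the only member that the GRCr8 gene table places on chromosome 4, the chromosome of the transferred segment, whose ends are not given in the labels. Whether the 2 D cyclins differ from each other in response was not tested.

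Replication genes were represented by Mcm7 and Pcna. Mcm7, a subunit of the helicase that opens origins, measured 5.79, 6.22 and 5.93 in PD and 5.30 and 5.53 in PD.SHR4. All PD arrays lay above the PD.SHR4 arrays, and the difference was -0.56 ± 0.17 (SE; limma, adjusted p = 0.229). Pcna, the sliding clamp of DNA polymerase, measured 7.39, 8.00 and 7.40 against 7.14 and 7.19 (-0.43 ± 0.22 SE; limma, adjusted p = 0.47). Without PD array 2 the difference was -0.23 for Pcna and -0.44 for Mcm7.

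**Figure D2:**
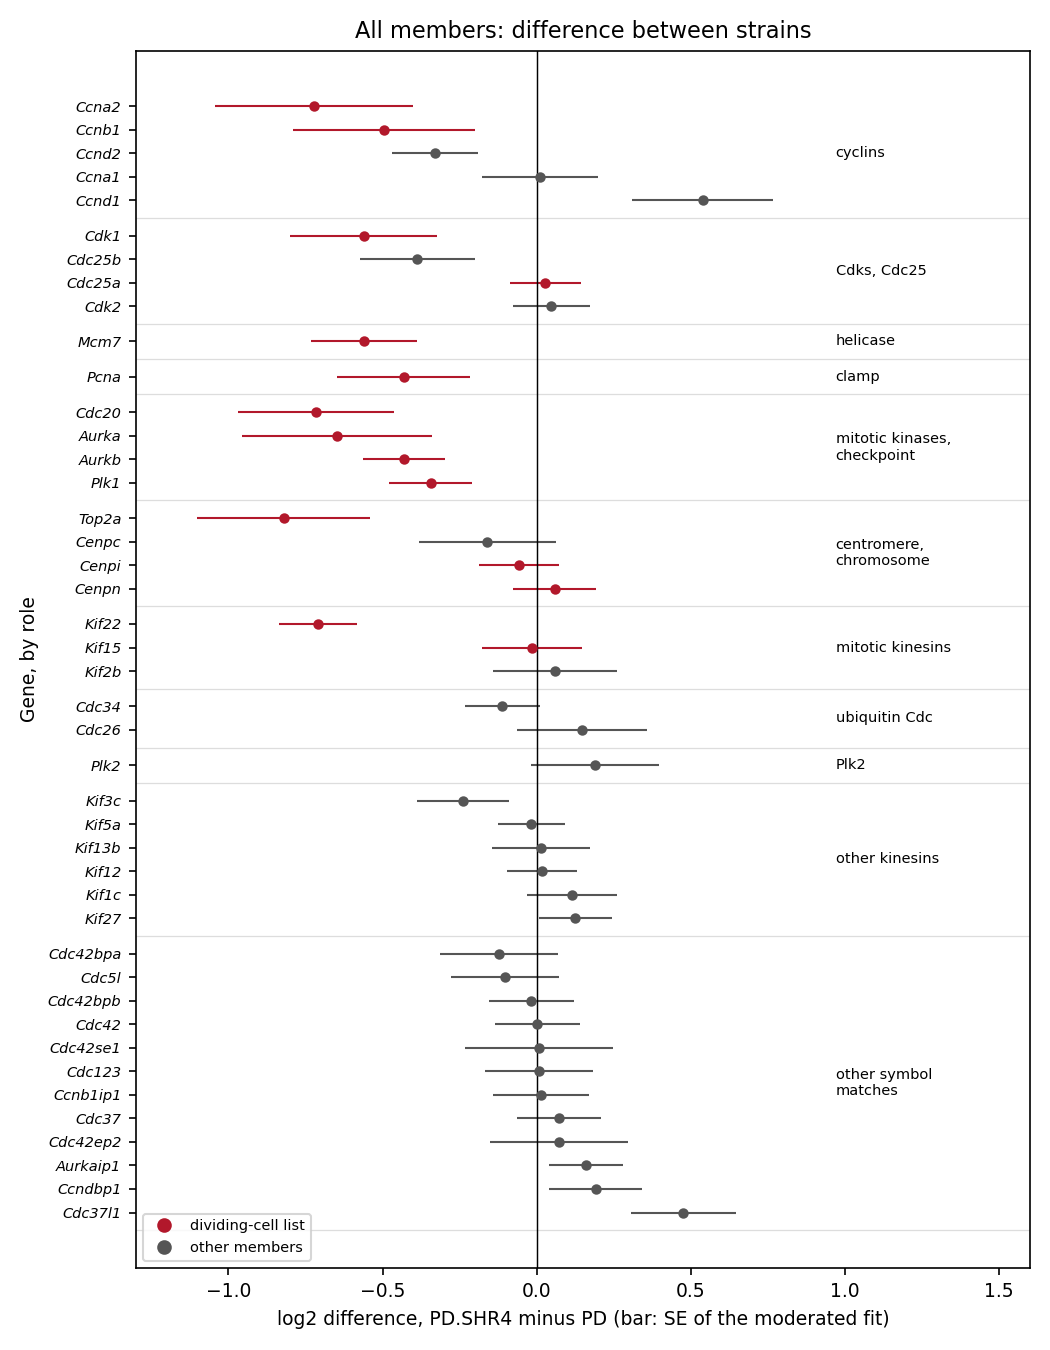
Log2 difference (PD.SHR4 minus PD) of all 43 members with the standard error (SE) of the moderated fit, grouped by role. Red points are the 15 dividing-cell genes and grey points the other 28. Differences run from -0.82 for Top2a to 0.54 for Ccnd1, the transport kinesins lie between -0.24 and 0.13, and Cdc37l1, at 0.48, is the highest of the other symbol matches.

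The members with other work, read here with the ubiquitin genes Cdc26 and Cdc34, stayed near 0 in most cases. The 6 kinesins of transport, cilia and signalling ran from -0.24 (Kif3c) to 0.13 (Kif27), with a median of 0.016. Kif1c, a motor of vesicle traffic, differed by 0.12 ± 0.15 (SE), and Kif5a, Kif12 and Kif13b by -0.017, 0.018 and 0.014. Cdc26 and Cdc34, a subunit of the anaphase-promoting complex and a ubiquitin-conjugating enzyme, differed by 0.15 ± 0.21 and -0.11 ± 0.12 (SE). The remaining 12 symbol matches had a median of 0.011 and ran from -0.12 (Cdc42bpa) to 0.48 (Cdc37l1). Cdc42 measured 10.58, 10.90 and 10.69 in PD and 10.71 and 10.74 in PD.SHR4, a difference of 0.0025 ± 0.14 (SE). Its kinases Cdc42bpa and Cdc42bpb and its effectors Cdc42ep2 and Cdc42se1 differed by -0.12, -0.017, 0.072 and 0.0073. Cdc37 differed by 0.072 ± 0.14 (SE), the splicing factor gene Cdc5l by -0.10, Cdc123, which helps assemble a translation initiation factor, by 0.0082, and Ccnb1ip1, a meiotic crossover gene, by 0.014. The mitochondrial protein gene Aurkaip1 and the cyclin D binding protein gene Ccndbp1 differed by 0.16 ± 0.12 and 0.19 ± 0.15 (SE).

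Cdc37l1, a relative of the co-chaperone Cdc37, was the member with the smallest p among those that were higher. Cdc37l1 measured 7.12, 7.60 and 7.36 in PD and 7.79 and 7.89 in PD.SHR4. Both PD.SHR4 arrays stood above all PD arrays (0.48 ± 0.17 SE; limma, adjusted p = 0.294).

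Further genes of the cycle were read from a list of 126 partners that are not members, of which 42 were measured. Pttg1 alone passed the test, as a fall, and 41 did not pass, where 0.932% of all probe sets passed. The median difference was -0.095, with 27 of 42 below 0. Among the 42, unadjusted p was under 0.05 for 6 that were lower, against 7.92% of all probe sets, and for 2 that were higher, against 5.84%. All PD.SHR4 arrays lay below all PD arrays for 13 of the 42, against 17.1% of all probe sets, and above them for 4, against 14.8%. Pttg1, the securin that helps keep sister chromatids from being parted before anaphase, fell. It measured 4.56, 4.58 and 4.65 in PD and 3.62 and 3.59 in PD.SHR4, with the arrays of each strain nearly superposed and the strains far apart. The difference was -0.99 ± 0.11 (SE), a level 1.98-fold lower (limma, adjusted p = 0.0352). The call was lost without any 1 array, with adjusted p (limma) of 0.073, 0.051 and 0.122 without PD arrays 1, 2 and 3. Of all probe sets only 28, 55 and 18 passed without those arrays, against 82 in the main fit. Pttg1 was not among those that passed. Whether the lost call reflects Pttg1 or the smaller number of arrays was not tested. The Pttg1 difference stayed between -1.01 and -0.96 when any 1 array of either strain was left out. Without variance shrinkage the adjusted p (limma) was 0.136, where 2 of all probe sets passed. With array weights it was 0.00427, where 819 passed.

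Wee1, the kinase that holds Cdk1 inactive and a known output of the circadian clock in mouse liver, measured 4.44, 4.44 and 4.50 in PD and 5.23 and 5.13 in PD.SHR4. Wee1 was higher on both PD.SHR4 arrays by more than the spread within either strain, at 0.72 ± 0.11 (SE), and just missed the threshold (limma, adjusted p = 0.0606). Ccng1, a p53 target, measured 8.32, 8.11 and 8.17 against 8.73 and 8.86 (0.60 ± 0.13 SE; limma, adjusted p = 0.113). Cdkn1b, the inhibitor p27, differed by 0.22 ± 0.11 (SE) without overlap, whereas Cdkn1a, the inhibitor p21, differed by -0.072 with overlap. Rfc3, a subunit of the loader of the Pcna clamp, differed by -0.80 ± 0.21, Tacc3, a spindle protein, by -0.50 ± 0.13, Uhrf1, which carries DNA methylation through replication, by -0.43 ± 0.14, and Btg1, an antiproliferative gene, by -0.59 ± 0.20 (SE). These 4 are among the 13 partners without overlap that were lower, and none of the 4 passed. Cdca3 and Orc5, a mitotic entry factor and an origin recognition subunit, differed by 0.51 ± 0.25 and 0.42 ± 0.23 (SE) and overlapped. Cdca3 differed by 0.31 without PD array 3, and Orc5 by 0.24 without PD array 1. The gene table places Orc5, Cdca3 and Cdkn1b, and also Foxm1 (0.028) and Gadd45a (0.063), on chromosome 4.

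**Figure D3:**
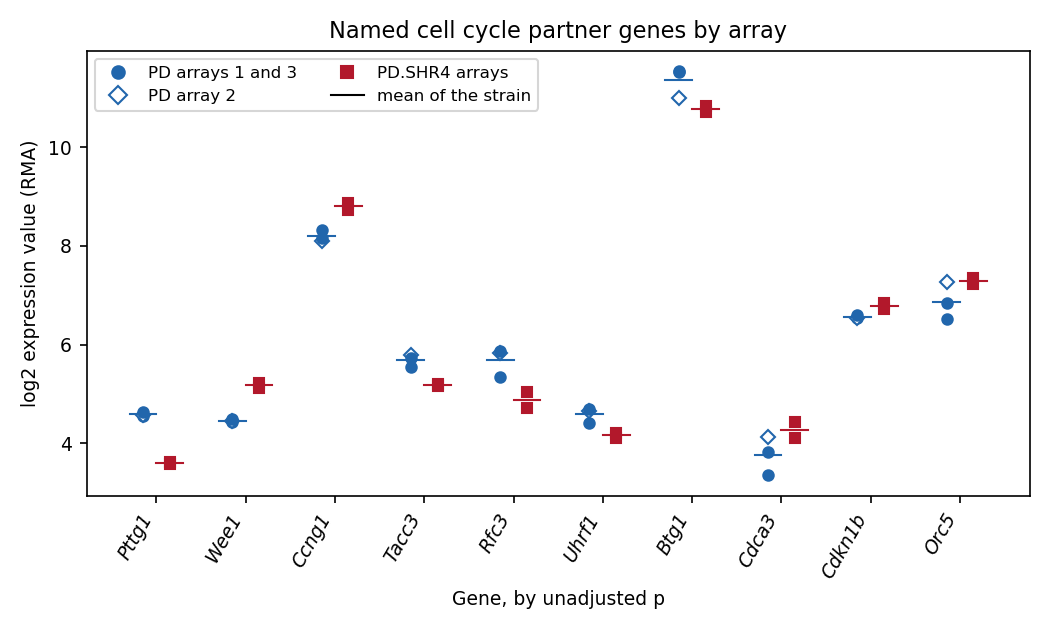
Log2 expression values (RMA) by array of the 10 partner genes chosen by smallest p in each direction, with symbols as in the plot of the dividing-cell genes. The PD arrays of Pttg1 lie at 4.56 to 4.65 and its PD.SHR4 arrays at 3.59 and 3.62; Wee1 shows the opposite order.

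PD array 2 touched many of these values. It was the highest PD array for 12 of the 15 dividing-cell genes and for 19 of the other 28 members, against 48.2% of all probe sets. The median over dividing-cell genes of the log2 value minus the gene's PD mean was -0.17, 0.25 and -0.061 on PD arrays 1, 2 and 3 and -0.33 and -0.51 on the PD.SHR4 arrays. For the other members it was -0.16, 0.17 and -0.019 against -0.010 and 0.066, so that for them the strains overlapped. Without PD array 2 the median difference of the dividing-cell genes was -0.39, and 6 members were lower at an unadjusted p under 0.05, with Ccna2 in place of Cdc20. Array medians ranged from 5.21 to 5.38, the latter on PD array 2, and lower quartiles from 2.84 to 2.93. After each array was centred on its median the dividing-cell median was -0.44.

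Markers of other liver cells were also lower in PD.SHR4, in most lists. All 7 measured macrophage and Kupffer cell markers of 11 listed were below 0, with a median of -0.49 (Tyrobp -0.80, Adgre1 -0.71), while Clec4f, a defining Kupffer cell marker, differed by only -0.079. Their summed linear level was 5053 to 5821 on the PD arrays and 4166 and 4279 on the PD.SHR4 arrays. Of 9 measured lymphocyte markers of 14 listed, 7 were below 0 (median -0.44), with sums of 300.1 to 377.1 against 223.3 and 229.8. Gzmb had the largest fall of the list, at -2.01. Cd2 and Cd4 were above 0, at 0.20 and 0.063, and Cd79b differed by -0.11, each with overlap. Of 4 measured erythroid markers of 10, 3 were below 0 (median -0.44), with sums of 1954 to 2395 against 1318 and 1602. Hbb-b1 (-0.66), by far the brightest of the 4, made up most of these sums, and Epor differed by 0.10. Of 6 measured stellate cell markers of 7, 4 were below 0 (median -0.29), and the 2 neutrophil markers of 6 differed by -0.91 and -0.57. Emcn, the 1 endothelial marker measured of 7 listed, differed by -0.63, and the 2 bile duct markers measured of 5 by 0.50 and -0.23. Hepatocyte markers, 7 of 8 measured, had a median of 0.058, and their sums overlapped, 39510 to 40910 against 40620 and 41320, Alb at 13.2 to 13.3 on all arrays. The hepatocyte marker Tat, an enzyme of tyrosine breakdown, was the exception, at -0.61 ± 0.21 (SE) without overlap (limma, adjusted p = 0.27), and the other 6 were above 0. None of these markers passed the test or was at 0. The part of any of these cells in the lower dividing-cell values was not tested.

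**Figure D4:**
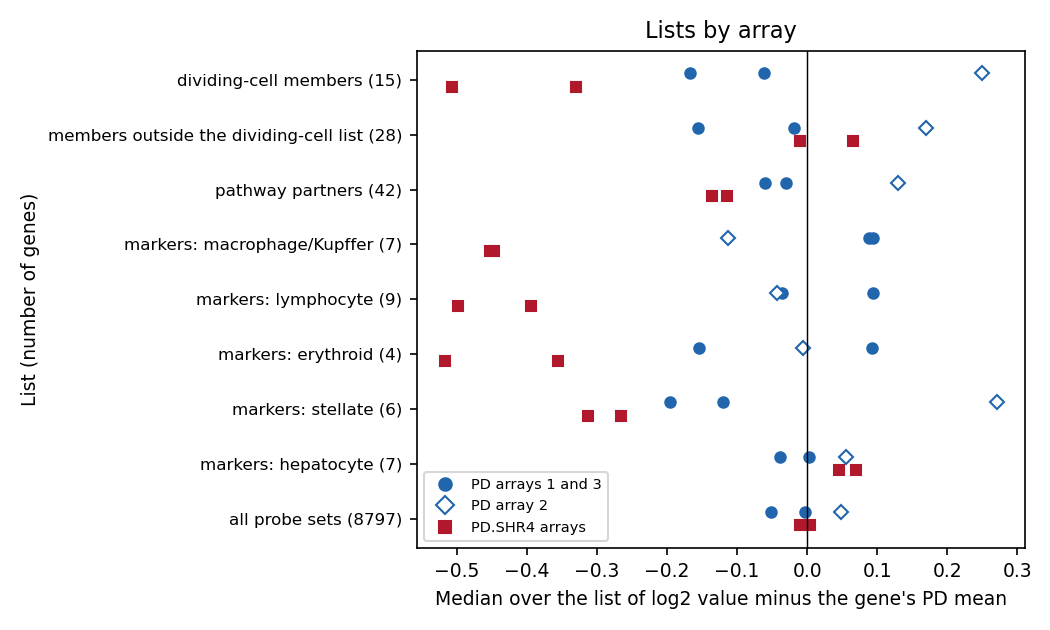
For each list, the median over its genes of the log2 value minus the gene's PD mean, by array. Blue points are PD arrays 1 and 3, open diamonds PD array 2 and red squares PD.SHR4 arrays. The PD.SHR4 arrays lie at -0.33 and -0.51 for the dividing-cell genes and at -0.45 for macrophage markers, and within the PD range for the other members and for all probe sets.

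The level of a probe set bears on how firmly its difference can be read. Of the 43 members, 5 lay below the lower quartile on every array, against 1842 of all 8797 probe sets. These members included the dividing-cell genes Cenpi and Kif15. Top2a, Cdk1, Ccna2 and Ccna1 lay below it on 4 of the 5 arrays. No calls of presence were among the values, and a dim probe set is not read here as an absent transcript. When the dimmest 25% of probe sets were left out, 34 members remained, 5 were lower at an unadjusted p under 0.05 and the median of the dividing-cell genes still measured was -0.46.

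**Figure D5:**
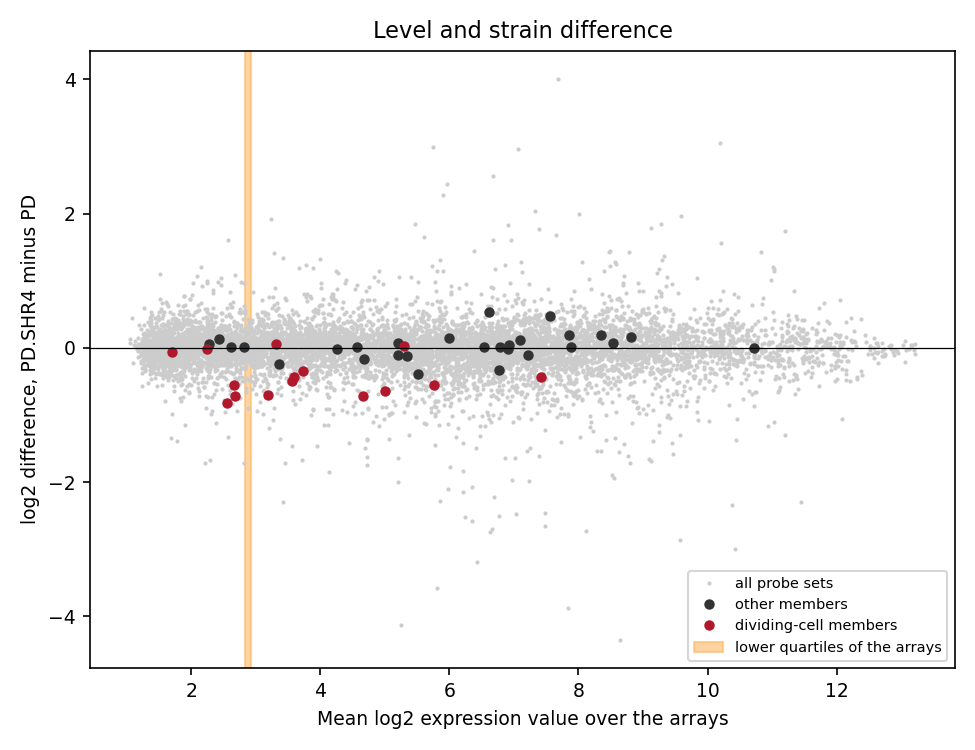
Log2 difference (PD.SHR4 minus PD) against the mean log2 expression value over the 5 arrays, for all 8797 probe sets (light grey), the 28 other members (dark) and the 15 dividing-cell genes (red). The band marks the lower quartiles of the arrays, 2.84 to 2.93. The members lie within the cloud of all probe sets.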

How the data were processed

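Liver RNA of PD and PD.SHR4 rats was measured on Affymetrix Rat Exon 1.0 ST arrays, 3 for PD and 2 for PD.SHR4. The deposited log2 expression values were computed by the authors with RMA in Expression Console, per the labels; Partek is also named in the submitters' processing notes. RMA subtracts a modelled background, normalises arrays by quantiles and summarises probes robustly. For software versions, annotation release and genome build, nothing was stated in the sources used here. The number of arrays limits the precision.

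Of 8797 probe sets, 7603 had 1 symbol in GEO's platform annotation. All 43 members matched the GRCr8 gene table by gene ID, and 34 had a RefSeq promoter window. Differences between strains came from limma 3.58.1 under R 4.3.3, fitted with lmFit and eBayes on 5 arrays without covariates. Tests were two-sided, and p-values were adjusted by Benjamini-Hochberg across the whole table. The fit was tested on simulated data. Cd36, deficient in the congenic strain by the series title, differed by -3.19 (limma, adjusted p = 0.0149) through a probe set shared with Cd36l1.

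Members, lists and tests were chosen with earlier results of these data known. Named were the 10 members of smallest p in each direction, the brightest and the smallest-p member of each role, and 5 partners in each direction. Other members are given by values and ranges, chosen after their values were seen. Equal replicate numbers did not pair the arrays by the labels. Alternatives tried were fits that lacked 1 array, a block for the replicate number, other variance shrinkage, no dim probe sets, further quantile normalisation, median centring, array weights, 1 probe set per gene and a fold limit of 1.5.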

Additional observations from a re-analysis of the deposited data

How the results depend on the processing

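No member passed the threshold in the main fit or in 12 of the 13 alternative fits, and none with a fold limit of 1.5. With array weights, which gave PD array 3 a weight of 4.26 and PD array 2 one of 0.304, 819 probe sets passed, and among them 5 members (Kif22, Mcm7, Plk1 and Top2a, lower, and Cdc37l1, higher) and 7 partners, with 11 members lower at an unadjusted p under 0.05. Leaving out 1 array gave 3 to 8 lower and 0 to 2 higher members at an unadjusted p under 0.05, 0 partners past the threshold and a dividing-cell median of -0.58 to -0.33, the last without PD.SHR4 array 2; the count of 3 came without either PD.SHR4 array. A lone PD.SHR4 array was assumed to vary like PD. The replicate number as a block gave 10 lower and 2 higher members and a dividing-cell median of -0.58. With the block, 0 members and 1 partner passed the threshold, where 163 of all probe sets passed, against 82 in the main fit. Deviations of equally numbered arrays from their strain mean correlated at 0.05 and 0.082. Deviations of only 2 PD.SHR4 arrays mirror each other, so this check cannot tell whether equally numbered arrays share more than a number. Without variance shrinkage there were 2 lower members, 0 higher and 0 partners past the threshold, where 2 of all probe sets passed. The share of all probe sets at an unadjusted p under 0.05 is not given for the alternatives. Whether the member counts moved apart from the whole array can therefore not be read from them. There were 2 higher members after further quantile normalisation and 2 after median centring. The partners past the threshold were 2, Pttg1 and Wee1, without the dimmest 25% of probe sets and 2 after further quantile normalisation. Over all 43 members, an alternative chosen after seeing the data, the median was -0.015 in place of -0.49. Among 464 pairs of a named gene and an alternative, 6 lost a call, all of Pttg1, and 13 gained one; Cdc42, Cdc26, Cdc37, Cenpn, Cenpc and Cdk2, all near 0, changed sign in some. Values near the probe background limit what dim genes can show. The cause of these changes was not tested.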
